A study of Mus musculus with 26 samples.

Results

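Long noncoding RNAs known to stay in the nucleus were examined together with the genes of paraspeckle proteins in brown adipose tissue (BAT) of mice with and without a fat-specific knockout of Afadin. The 7 genes were Neat1, Malat1, Meg3 and Kcnq1ot1, which are noncoding, and Sfpq, Nono and Pspc1, which encode proteins. They are 7 of the 50686 genes in the count table. Neat1 was chosen by its measured values, a lower level in cold-exposed knockout than control BAT, and the others as nuclear RNAs or paraspeckle genes beside it. All 7 passed the filter on low counts that left 17286 genes for testing. The RNA was from whole tissue, so where in the cell each transcript was found was not measured.

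All animals were C57BL/6J male mice, 12 to 16 weeks old according to the methods. KO animals came from the cross of Adiponectin-Cre with Mllt4 flox/flox, in which Cre acts in adipocytes and Afadin (gene Mllt4, listed here as Afdn) is removed there but not from other cells of the tissue, and WT animals were control littermates. WT30 (n = 7) and KO30 (n = 7) were kept at thermoneutrality for 2 weeks, at 30 °C by the labels and 29 °C by the methods. WT5 (n = 5) and KO5 (n = 7) were treated likewise and then exposed to 5 °C for 6 h. Each library was prepared from total RNA after removal of ribosomal RNA with a kit that keeps the strand, so RNAs without a poly(A) tail could be captured.

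Paraspeckles are nuclear bodies built on the long form of Neat1, which binds the DBHS family proteins Sfpq, Nono and Pspc1. Malat1 is an abundant RNA of nuclear speckles, where splicing factors are stored. Meg3 and Kcnq1ot1 are each expressed from one parental allele of an imprinted domain, Dlk1-Dio3 and Kcnq1 respectively, and Kcnq1ot1 lies antisense within the protein-coding gene Kcnq1.

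Neat1 (ENSMUSG00000092274.2) and Malat1 (ENSMUSG00000092341.2) lie close together on the minus strand of chromosome 19 (GRCm38), Neat1 from 5824708 to 5845478 and Malat1 from 5795690 to 5802672. The ends of their transcripts are shown because per-gene counts pool the short and long forms of Neat1, which differ in how they end. The short form is cut and polyadenylated like an mRNA, and the long form and Malat1 end in an A-rich run. All are written 5′ to 3′ from the GENCODE transcripts, with the polyadenylation signal AATAAA of the short form, or the run AAAAAGCAAAA, in capitals.
Neat1 short form, chr19:5842307-5842366, minus strand: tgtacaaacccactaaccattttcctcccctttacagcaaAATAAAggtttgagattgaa
Neat1 long form, chr19:5824708-5824767, minus strand: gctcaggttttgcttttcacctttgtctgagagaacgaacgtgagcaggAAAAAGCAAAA
Malat1, chr19:5795982-5796041, minus strand: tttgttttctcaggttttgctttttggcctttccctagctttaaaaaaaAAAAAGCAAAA
The long form ended directly in the run, whereas 292 annotated bases followed it in Malat1. The run was found in a transcript of 376 of 55450 genes (0.678%). After the end of the short form the long form continued for 17599 bases, 84.7% of its length, so a count per gene cannot say which form was present.

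Meg3 (ENSMUSG00000021268.17) spans 109541001 to 109571726 on the plus strand of chromosome 12, and Kcnq1ot1 (ENSMUSG00000101609.1) is a single exon from 143203458 to 143296549 on the minus strand of chromosome 7. Sfpq lies on chromosome 4 (127021324 to 127037013), Nono on chromosome X (101429318 to 101448591) and Pspc1 on chromosome 14 (56720710 to 56778316). Promoter windows from RefSeq (GRCm38.p6, 250 bases before to 50 after a start) were given for 6 of the 7 genes, all but Neat1, in 7 windows. The cAMP response element TGACGTCA, searched on both strands, was in 1 of these windows and in 1.79% of all 32851 windows. It was in the Meg3 window from 109540746 to 109541045, and not in the other Meg3 window, from 109545148 to 109545447.

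Library totals ranged from 12705969 to 25732258 counts. Brown adipocyte markers were expressed in all 26 libraries, and Ucp1, the uncoupling protein, averaged 985 CPM (counts scaled to a common library size by TMM) in WT30, 811 in KO30, 16005 in WT5 and 16429 in KO5. Afdn averaged 196 CPM in WT30 and 195 CPM in KO30, and 73.5 CPM in WT5 and 58.5 CPM in KO5. Counts of Afdn therefore did not separate the labelled genotypes at thermoneutrality, whereas those of another gene did. Kng1, a neighbour of the adiponectin gene, had at most 1 count in every WT library and 123 to 389 counts in the KO5 libraries and 148 to 229 in the KO30 libraries. WT and KO below are the groups as labelled. One library, WT30 replicate 7, stood apart. In it 14.3% of counts were in genes of the mitochondrial genome, against 33.9% to 40.5% in the other WT30 libraries. Marker sums here and below are CPM scaled by library total alone, without TMM. On that scale its fibroblast and preadipocyte (3555 CPM), muscle (6351 CPM) and red blood cell (1444 CPM) sums were the highest of all 26. This library also had the largest TMM factor (1.29), so its rank for these sums can differ after TMM scaling.

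Per kilobase of annotated exon, the level in WT30 was highest for Malat1, at 1309 ± 94.2 CPM per kb (SD, n = 7). Neat1 followed at 30.6 ± 8.96, Sfpq at 22.9 ± 2.83, Nono at 12.4 ± 0.631 and Pspc1 at 4.00 ± 0.656 CPM per kb. Kcnq1ot1 had 1.51 ± 0.160 and Meg3 0.744 ± 0.0588 CPM per kb. Neat1 and Sfpq, neighbours in this order, overlapped within their spread. The value for Neat1 is divided by the 20771 bases of the long form, and would be higher per base of the short form. Malat1 alone took 48.4% of all counts in long noncoding genes in WT30 and 45.3% in WT5, and Neat1 took 3.37% and 13.5%.

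**Figure D1:**
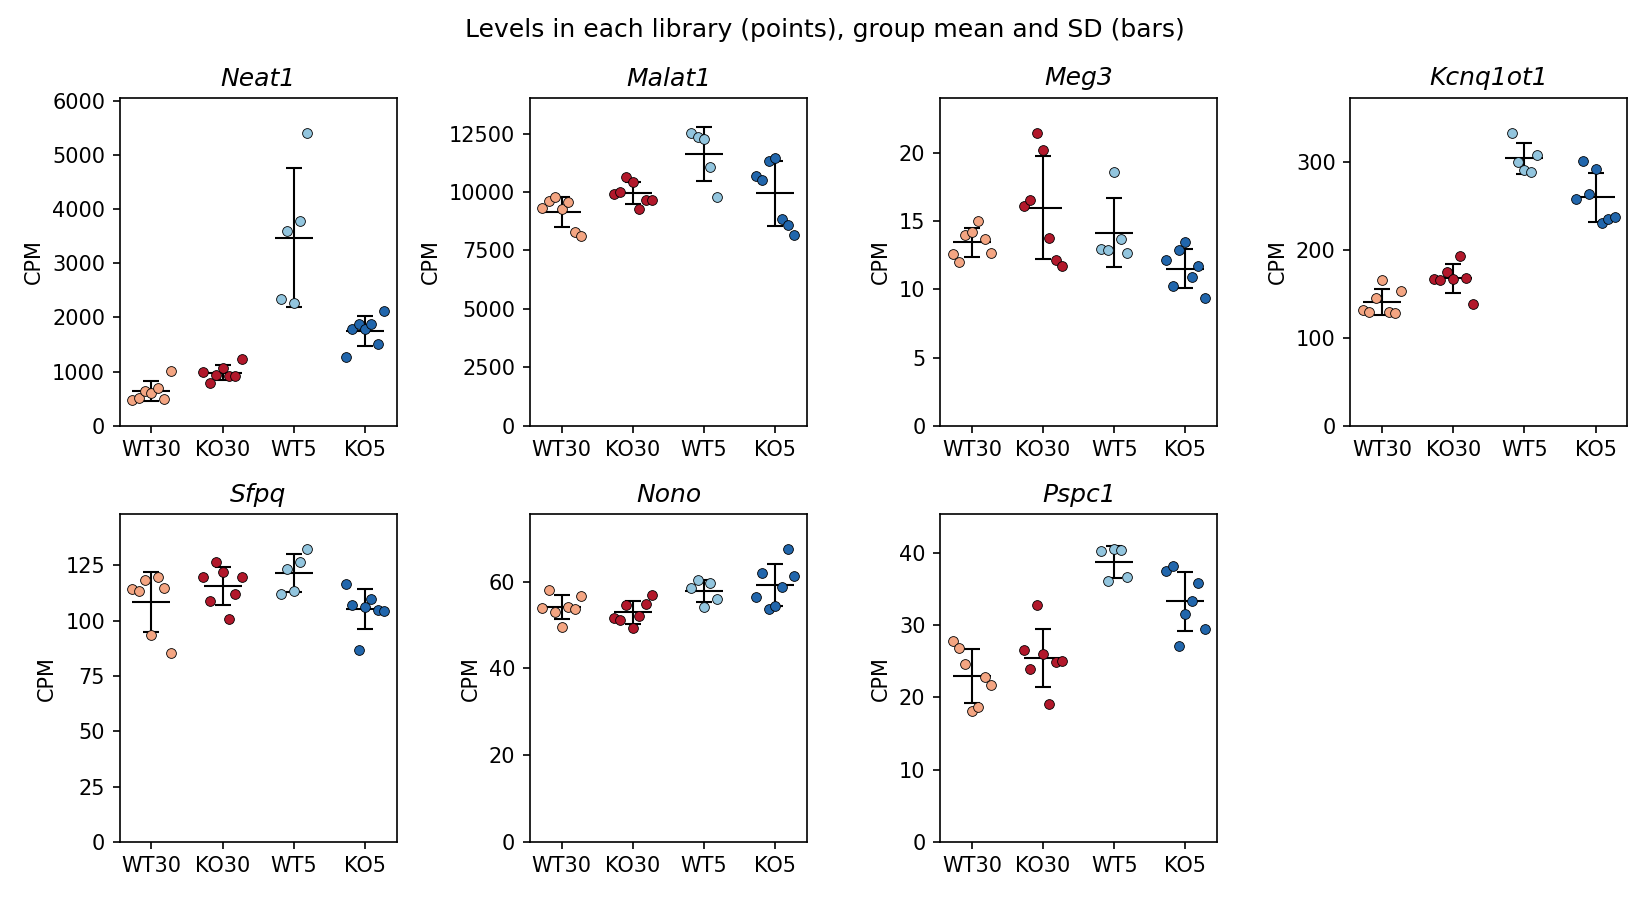
Level of each of the 7 genes in CPM (linear axis from 0) in every library, grouped as WT30, KO30, WT5 and KO5, with each point a library and bars the group mean and SD. Neat1 in all 5 WT5 libraries lay above every other library, and the group means of Nono ranged from 52.9 to 59.2 CPM.

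Cold exposure raised Neat1 in WT BAT, and raised Kcnq1ot1, Pspc1 and Malat1 by less. In the WT30 libraries Neat1 was between 479 and 1016 CPM, with a median of 607. In the WT5 libraries it was 2333, 3589, 2265, 3777 and 5405 CPM. The lowest cold-exposed value was above the highest thermoneutral value. The SD was 1284 CPM in WT5 and 186 CPM in WT30, which is 37.0% and 29.3% of the respective group mean. The rise was 5.47-fold (log2 fold change 2.45, SE 0.19, edgeR quasi-likelihood test, Benjamini-Hochberg adjusted p = 1.49e-11). Because the tissue was measured in bulk, fewer cells of a type and less RNA per cell cannot be told apart in this or any later result. Since the WT5 libraries also entered the comparison by which Neat1 was put forward, this rise is not independent of that choice.

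Kcnq1ot1, which silences genes of the Kcnq1 domain on the paternal allele, was between 129 and 166 CPM in WT30 (median 131) and 333, 300, 291, 289 and 309 CPM in WT5. No WT5 library overlapped WT30, and the log2 fold change was 1.11 (SE 0.08, edgeR quasi-likelihood test, adjusted p = 3.55e-12). Pspc1, the DBHS gene with the lowest level, was 18.1 to 27.8 CPM in WT30 (median 22.8) and 40.3, 36.1, 40.5, 40.4 and 36.6 CPM in WT5. The groups did not overlap, with a log2 fold change of 0.76 (SE 0.11, edgeR adjusted p = 1.16e-06). Malat1 was 8115 to 9769 CPM in WT30 (median 9337) and 12522, 12371, 12266, 11090 and 9807 CPM in WT5, and the log2 fold change was 0.35 (SE 0.09, edgeR adjusted p = 0.000954). The groups were again apart, but the lowest WT5 library was close to the highest WT30 library.

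The remaining members did not pass the threshold in WT. Sfpq, which binds Neat1 and is essential for paraspeckles, gave a log2 fold change of 0.16 (SE 0.08, edgeR adjusted p = 0.0786), Nono, its usual partner, 0.09 (SE 0.06, adjusted p = 0.142), and Meg3, 0.08 (SE 0.13, adjusted p = 0.621). The groups overlapped for these genes. In all, 4 of the 7 genes were called, all higher, against 65.0% of all 17286 genes in either direction (31.6% higher), and 46.4% of all genes had groups that did not overlap (23.5% higher). A call in this comparison is therefore common. Neat1 ranked 53rd by rise among 2620 long noncoding genes tested, a rank that rests on the same WT5 libraries as its choice. Long noncoding genes as a class did not move this way: 596 rose and 725 fell, with a median log2 fold change of -0.03, beside -0.01 over all genes. When unverified transcript entries (the TEC type) were left out of the class, a choice made after these values were seen, 366 rose and 561 fell of 1659 with a median of -0.18, and Neat1 ranked 42nd.

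**Figure D2:**
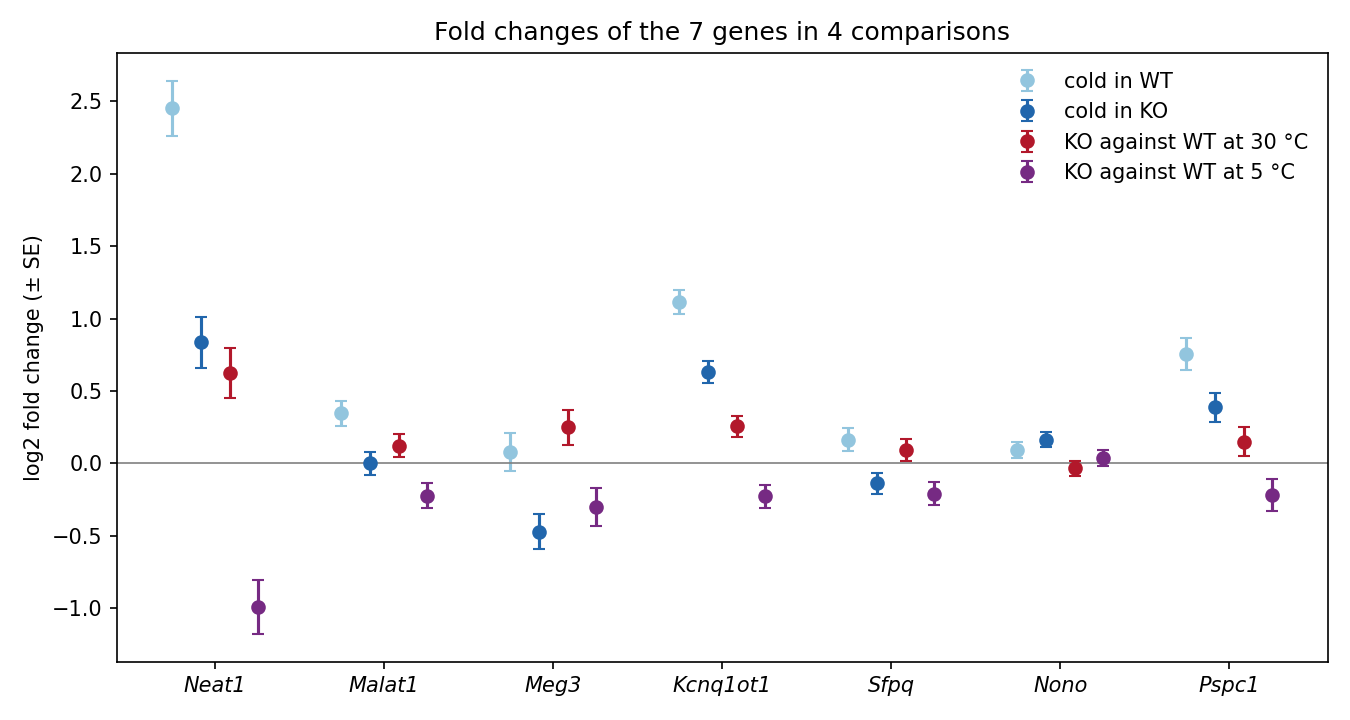
Log2 fold change with its SE for the 7 genes in 4 comparisons, the cold response in WT and in KO and KO against WT at 30 °C and at 5 °C. Neat1 had the largest value of the 7 in the cold response in both genotypes, 2.45 in WT and 0.84 in KO.

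In BAT of animals labelled KO, the same cold exposure raised Neat1, Kcnq1ot1, Pspc1 and Nono and lowered Meg3. Neat1 was 784 to 1234 CPM in KO30 (median 933) and 1262 to 2116 CPM in KO5 (median 1795), without overlap between the groups, as for 21.1% of all genes in this direction. The rise was 1.78-fold (log2 fold change 0.84, SE 0.17, edgeR quasi-likelihood test, adjusted p = 0.000134), and Neat1 ranked 231st of 2620 long noncoding genes by rise (177th of 1659 without TEC entries). The KO5 libraries entered the comparison by which Neat1 was put forward, so its KO rise and rank are not independent of that choice either. Kcnq1ot1 was 138 to 194 CPM in KO30 (median 167) and 231 to 302 CPM in KO5 (median 258), again without overlap, with a log2 fold change of 0.63 (SE 0.07, edgeR adjusted p = 2.99e-08).

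Pspc1 was 19.2 to 32.8 CPM in KO30 (median 25.0) and 27.2 to 38.1 CPM in KO5 (median 33.4), with overlap, and a log2 fold change of 0.39 (SE 0.10, edgeR adjusted p = 0.00157). Scaled by library size alone, its log2 fold change was 0.09 and did not pass (adjusted p = 0.519). Nono rose by 0.16 on the log2 scale (SE 0.05, edgeR adjusted p = 0.00671), a call lost under 3 alternatives, and with library size alone the direction turned (-0.15). Meg3 was 11.7 to 21.5 CPM in KO30 (median 16.1) and 9.38 to 13.5 CPM in KO5 (median 11.7), and fell by 0.47 on the log2 scale (SE 0.12, edgeR adjusted p = 0.00124), although the groups overlapped. Malat1 had a mean of 9940 CPM in both KO30 and KO5, and its log2 fold change of 0.00 (SE 0.08) became -0.33 with library size alone (edgeR adjusted p = 0.000268). Sfpq gave -0.14 (SE 0.07, edgeR adjusted p = 0.0998) and passed as lower under 6 of 21 alternatives. Against these 5 calls of 7, 68.6% of all genes were called in KO cold (33.7% higher, 34.9% lower). Scaling by library size alone changed the split of calls over all genes from 5825 higher and 6035 lower to 3223 higher and 8384 lower, and moved the median of all genes from -0.03 to -0.34. In WT the split went from 5454 higher and 5779 lower to 4165 and 6243, and the median from -0.01 to -0.14. Among long noncoding genes in KO, 378 rose and 1134 fell with a median of -0.37, and without TEC entries 269 rose and 753 fell with a median of -0.42.

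At thermoneutrality, none of the 7 genes passed the threshold between KO30 and WT30, and 14 genes did over the whole table (0.0810%, of which 0.0579% higher and 0.0231% lower). Over all genes, 1322 genes had an unadjusted p under 0.05, DESeq2 called 48, and 0.249% had groups that did not overlap (0.174% higher, 0.0752% lower). Neat1 had the largest log2 fold change of the 7, 0.62 (SE 0.17, edgeR adjusted p = 0.270), and 2 of 7 KO30 libraries were above the highest WT30 library. That library was WT30 replicate 7, at 1016 CPM. Without it Neat1 in all KO30 libraries was above WT30, but the share of all genes apart in that set was not computed. The log2 fold change was then 0.79 (edgeR adjusted p = 0.0223), with 93 genes called over the table. Neat1 passed at thermoneutrality in this 1 of 21 alternatives only. The mitochondrial share and cell type markers of this library are given above, and their part in the Neat1 value was not tested. Kcnq1ot1 gave 0.26 (SE 0.07, edgeR adjusted p = 0.299) and Meg3 0.25 (SE 0.12, edgeR adjusted p = 0.648). The remaining members lay between -0.03 (Nono) and 0.15 (Pspc1), and with library size alone Nono was 0.11. The median over all long noncoding genes was 0.15, or 0.11 without TEC entries, and over protein-coding genes -0.03.

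After cold, Neat1 was lower in KO5 than in WT5. This is the difference by which it was put forward, so the values are a description without a test. All 7 KO5 libraries, at most 2116 CPM, were below the lowest WT5 library at 2265 CPM, and 0.781% of all genes had every KO5 library below every WT5 library. The means were 1746 ± 278 CPM in KO5 (SD, n = 7) and 3474 ± 1284 CPM in WT5 (SD, n = 5), and the log2 fold change was -0.99 (SE 0.19), or -0.78 without WT5 replicate 21, which had the highest Neat1 level. Scaled by library total alone, without TMM, summed red blood cell markers averaged 872 CPM in KO5 (397 to 1402) and 461 CPM in WT5 (397 to 601). Neutrophil markers on that scale averaged 10.5 CPM in KO5 (2.85 to 38.1) and 4.61 CPM in WT5 (2.45 to 6.00). KO5 replicate 27 held the 38.1 CPM, and the medians were 3.86 CPM in KO5 and 4.52 CPM in WT5. Schwann cell markers averaged 30.8 CPM in KO5 and 37.5 CPM in WT5, and endothelium markers 636 CPM in KO5 and 696 CPM in WT5. The part of these markers in the Neat1 difference was not tested. The order of the Neat1 group means was thus WT30, KO30, KO5, WT5, where WT30 and KO30 overlapped and the later neighbours did not.

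In the same comparison Meg3 had a log2 fold change of -0.30 (SE 0.13), or -0.18 without WT5 replicate 18, its highest WT5 library. The values of the others were Kcnq1ot1 -0.23 (SE 0.08), Malat1 -0.22 (SE 0.09), Pspc1 -0.22 (SE 0.11), Sfpq -0.21 (SE 0.08) and Nono 0.03 (SE 0.06). The difference of the cold responses, KO minus WT, was -1.61 (SE 0.26) for Neat1, -0.55 (SE 0.18) for Meg3, -0.48 (SE 0.11) for Kcnq1ot1, -0.37 (SE 0.15) for Pspc1, -0.35 (SE 0.12) for Malat1, -0.30 (SE 0.11) for Sfpq and 0.07 (SE 0.08) for Nono. It contains the WT5 and KO5 libraries and is likewise a description. With library size alone Nono turned to -0.11, Neat1 was -1.78, and the values of the other 5 were lower too, from -0.50 (Sfpq) to -0.74 (Meg3). Long noncoding genes as a class had a median of -0.26 in this difference, or -0.18 without TEC entries, against 0.08 for protein-coding genes. The part of this class-wide value in those of the 4 noncoding members was not tested. The share of counts in long noncoding genes other than the 4 was 0.918% ± 0.116 in WT30, 1.05% ± 0.0682 in KO30, 0.963% ± 0.0522 in WT5 and 0.882% ± 0.104 in KO5 (SD).

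**Figure D3:**
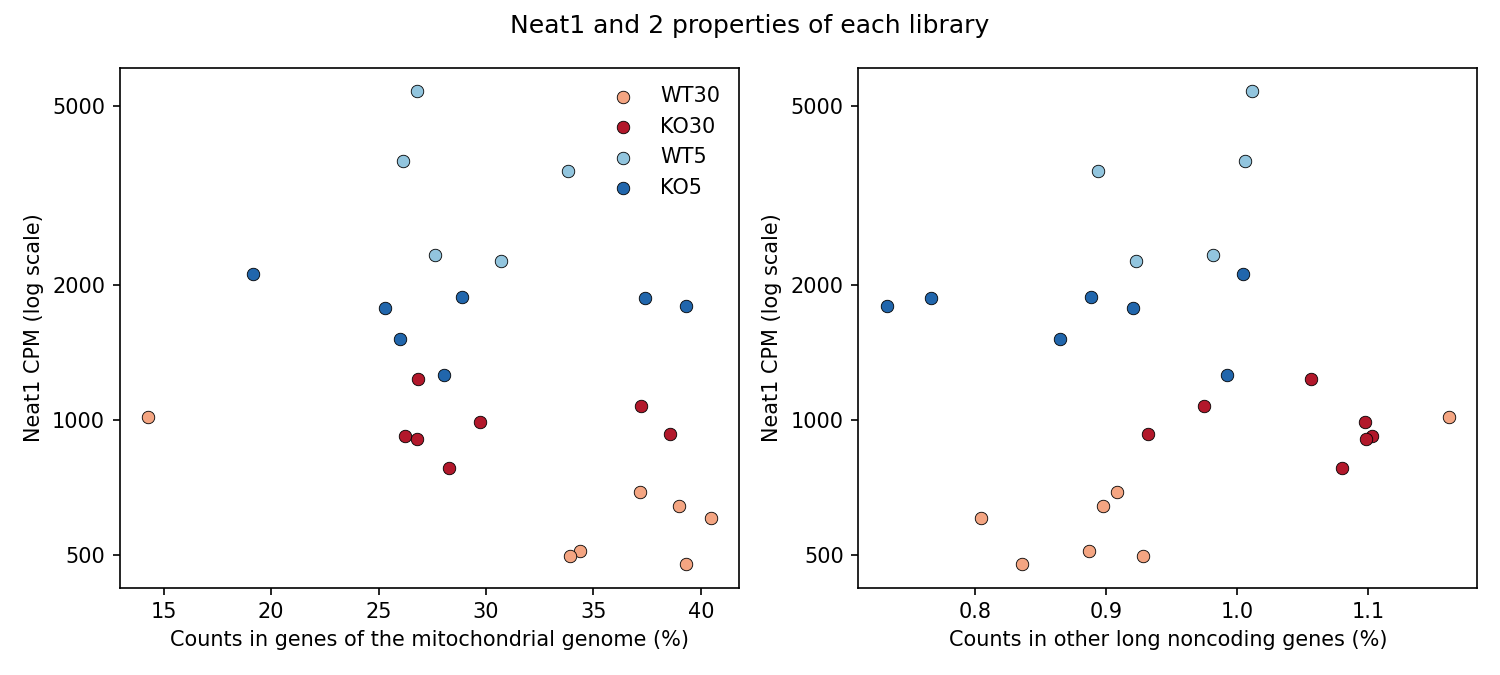
Neat1 level (log axis, CPM) of each library against the percent of its counts in genes of the mitochondrial genome (left) and in long noncoding genes other than the 4 members (right), coloured by group. WT30 replicate 7, with 14.3% mitochondrial counts, had the highest Neat1 level of its group, and all 5 WT5 libraries lay above every other library.

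Paraspeckle proteins beyond the 3 members, and other genes of these pathways, were counted in lists made with earlier results of these data known. Of 17 paraspeckle protein genes, the 3 members included, 11 rose, 3 fell and 3 did not pass in WT cold, and 9 rose, 2 fell and 6 did not pass in KO cold. The shares over all genes were 31.6% higher and 33.4% lower in WT and 33.7% higher and 34.9% lower in KO, beside which each list count below is to be read. The medians were 0.40 in WT and 0.37 in KO, against -0.01 and -0.03 over all genes. Taf15, an RNA-binding protein of the FET family, averaged 18.1 CPM in WT30 and 31.8 CPM in WT5 (log2 fold change 0.81, SE 0.15, edgeR adjusted p = 2.68e-05). Hnrnpa1, a splicing regulator, had the largest rise in KO, from 38.9 CPM in KO30 to 79.9 CPM in KO5 (1.04, SE 0.12, edgeR adjusted p = 9.79e-09). Fign, an ATPase that severs microtubules, had the largest fall in both, -1.05 in WT (SE 0.16, edgeR adjusted p = 2.53e-06) and -1.39 in KO (SE 0.15, edgeR adjusted p = 3.64e-09).

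Factors that choose between the ends of Neat1 rose in 4 of 5 cases in each genotype, and 0 fell, where 31.6% of all genes rose in WT and 33.7% in KO. Cpsf7 and Hnrnpk, among those that rose, were also counted among the paraspeckle protein genes above. Cpsf7, a subunit of the cleavage factor that favours the short form, rose by 0.77 on the log2 scale in WT (SE 0.06, edgeR adjusted p = 7.09e-12). In KO it rose by 0.55 (SE 0.05, edgeR adjusted p = 7.59e-10). Hnrnpk, which favours the long form, rose by 0.56 in WT (SE 0.06, edgeR adjusted p = 2.11e-08). Its rise in KO was 0.63 (SE 0.06, edgeR adjusted p = 4.68e-10), from 161 to 250 CPM. Of 17 genes of nuclear speckle and SR proteins, 9 rose and 1 fell in WT (all genes 31.6% and 33.4%) and 8 rose and 0 fell in KO (all genes 33.7% and 34.9%). Srsf6, a splicing factor of the SR family, had the largest rise in both, from 65.1 to 123 CPM in WT and from 65.5 to 124 CPM in KO (edgeR adjusted p = 9.03e-13 and 1.32e-13). Srsf7 was the one that fell in WT, by 0.29 on the log2 scale (edgeR adjusted p = 0.0223).

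Of the other nuclear or chromatin-bound long noncoding RNAs, 10 of 17 were tested, and in WT 2 rose and 4 fell, in KO 2 rose and 6 fell. With 65.0% of all genes called in WT and 68.6% in KO, these counts say nothing particular about the list. Airn, the antisense RNA of the imprinted Igf2r domain, had the largest fall, from 19.4 to 4.25 CPM in WT (log2 fold change -2.19, SE 0.09, edgeR adjusted p = 5.26e-17) and from 21.6 to 3.20 CPM in KO (-2.75, SE 0.08, edgeR adjusted p = 1.06e-19). Pvt1, which lies beside Myc, was low and had the largest rise in both genotypes. It went from 1.75 to 4.94 CPM in WT (log2 fold change 1.48, SE 0.23, edgeR adjusted p = 3.45e-06). In KO it went from 1.91 to 5.70 CPM (1.58, SE 0.21, edgeR adjusted p = 2.93e-07). Airn and Kcnq1ot1, both imprinted antisense RNAs, thus went in opposite directions after cold.

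In the Kcnq1 domain, 9 of 11 genes were tested, 4 rose and 5 fell in WT (all genes 31.6% and 33.4%), and 4 rose and 4 fell in KO (all genes 33.7% and 34.9%). Osbpl5, an oxysterol-binding protein, fell from 48.6 to 14.0 CPM in WT (log2 fold change -1.79, SE 0.08, edgeR adjusted p = 8.06e-16). Kcnq1 itself, a potassium channel, was low and had its largest fall in KO, from 3.32 to 0.851 CPM (-1.96, SE 0.20, edgeR adjusted p = 2.29e-09). One of its 22 exon blocks overlaps Kcnq1ot1, and the strand setting of the counting was not given in the sources used here. Cdkn1c, an inhibitor of the cell cycle, rose by 0.74 in WT (SE 0.18, edgeR adjusted p = 0.000603). Tssc4 had the largest rise of the other genes in KO, 0.55 (SE 0.09, edgeR adjusted p = 6.82e-06).

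In the Dlk1-Dio3 domain, 0 of 5 genes tested passed in WT (65.0% of all genes did) and 3 fell in KO (34.9% of all genes did), among them Meg3 and Dlk1, an inhibitor of adipogenesis. Dlk1 was low, at 2.28 ± 0.942 CPM in KO30 and 1.31 ± 0.837 CPM in KO5 (SD, n = 7), and its log2 fold change in KO was -0.82 (SE 0.35, edgeR adjusted p = 0.0386). Around Neat1 and Malat1, those genes included, 3 of 11 rose and 4 fell in WT (all genes 31.6% and 33.4%). In KO 2 rose and 4 fell (all genes 33.7% and 34.9%). Those that rose included Neat1 and Malat1 in WT and Neat1 in KO, and Ehbp1l1 was the only neighbour that rose in each. Ehbp1l1 rose by 0.59 in WT (SE 0.14) and Ltbp3, a binding protein of latent TGF-β, fell by 0.94 on the log2 scale in WT (SE 0.17), with edgeR adjusted p = 0.000851 and 2.18e-05. The small RNA entry Gm27702, directly after the end of the long form, had 0 to 10 counts per library, too few for a comparison. No gene of any list passed at thermoneutrality, where only 0.0810% of all genes did, so this says nothing particular about the lists.

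**Figure D4:**
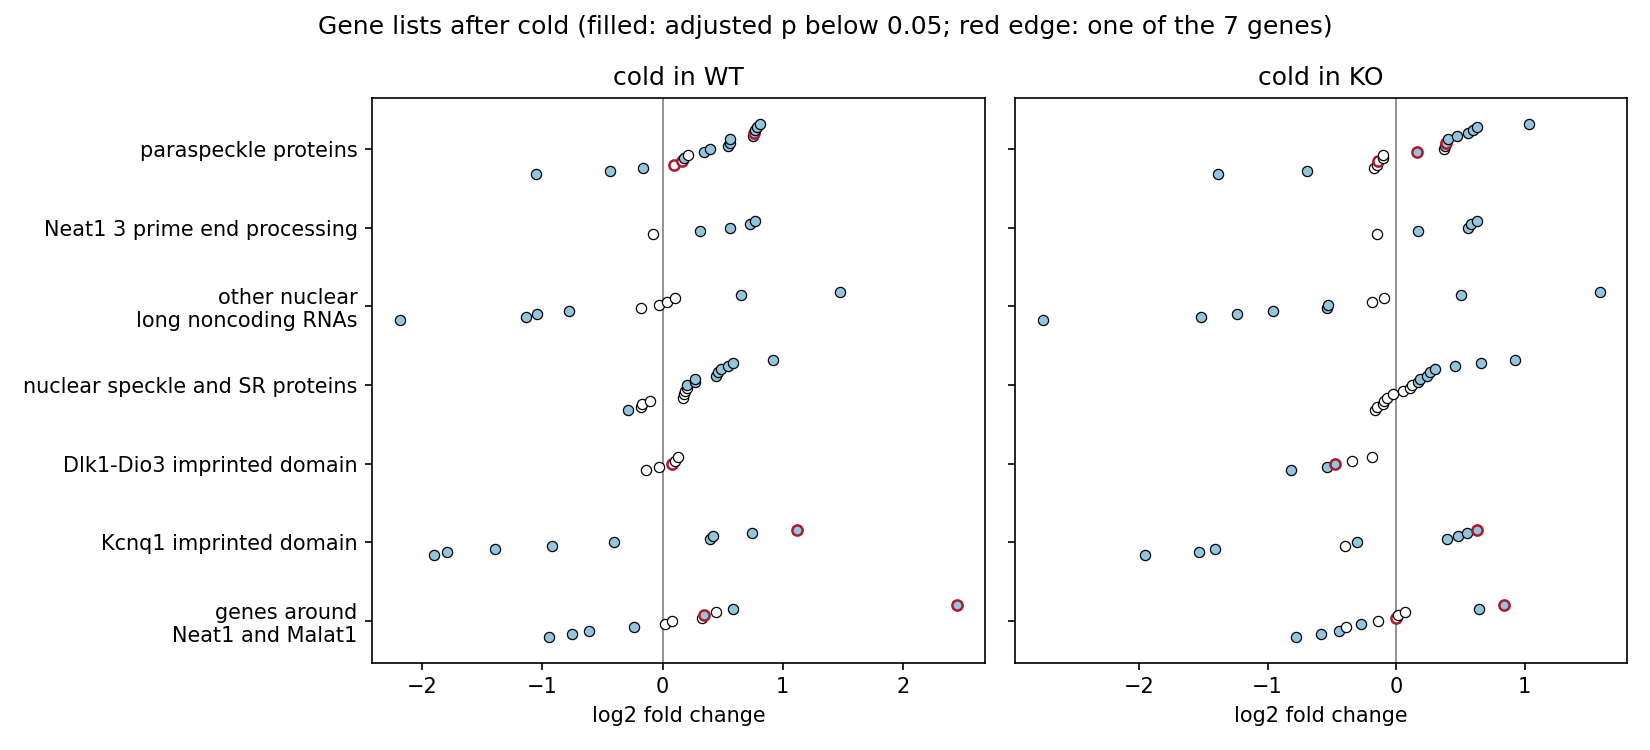
Log2 fold change after cold in WT (left) and KO (right) of every tested gene in 7 lists, with filled points at an adjusted p below 0.05 and red edges for the 7 genes of the report. Neat1 is the rightmost point in WT, and in KO the 5 tested genes of the Dlk1-Dio3 domain lie below 0.

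Within groups, after each group's mean was subtracted, Neat1 over the 26 libraries was most like Mss51, Clasrp and Slc36a1 (Pearson r of log2 CPM 0.71 for each, and 0.53, 0.49 and 0.60 without the 2 libraries farthest from the median). Malat1 was most like Myh10 (0.87), Gm24187 (0.86) and Nrd1 (0.85), Meg3 was like Rin3 and Fkbp1a (0.76 for each), and Kcnq1ot1 was most like Evc2, Dapp1 and Tnik (0.75, 0.74 and 0.74). These are the highest values over the genes searched, given as a description, and the libraries share their scaling and composition. Over the 21 pairs of members r ran from -0.53 (Meg3 and Nono) to 0.53 (Sfpq and Pspc1). Neat1 had r = -0.08 with Sfpq, 0.11 with Nono, -0.34 with Pspc1 and -0.42 with Malat1.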

How the data were processed

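The authors deposited a table of raw counts per gene from 26 libraries, made per the labels with STAR 2.5.2b on mm10 and featureCounts 1.5.2 (GENCODE M13). The strand setting was not given in the sources used here. From the deposited counts, edgeR 4.0.16 (R 4.3.3, limma 3.58.1) fitted one quasi-likelihood model over all 4 groups with TMM scaling, after filterByExpr kept 17286 of 50686 genes, and p-values were adjusted by Benjamini-Hochberg over all of them, with a threshold of 0.05. CPM values are scaled by TMM, except the summed cell type markers, which are scaled by library total alone. Symbols matched 50376 genes. Library totals were 12705969 to 25732258 counts, and the standard errors include the spread between animals. Replicates are separate samples by the labels, and all 73 pairs within groups differed by more than sampling noise (lowest chi-square per gene 4.83). The members and gene lists were chosen with earlier results of these data known. From each list, the gene that rose most and the one that fell most in each genotype are named, among called genes averaging 1 CPM or more, and for likeness the 3 genes of highest r, of which 1 is not reported here. The heat shock element was also searched in the promoter windows and was in 0 of 7 member windows and 0.603% of all windows. KO against WT at 5 °C was described without a test. Exon lengths for the values per kilobase were taken from GENCODE M21, not from the M13 release used for counting. The class of long noncoding genes followed GENCODE M21 biotypes, first with TEC entries. The class without them was added after the values of the first had been seen. The fit was tested on simulated data in which few genes changed, so scaling under the many changes seen after cold was not tested. Alternatives were DESeq2 1.42.0, library size alone, other filters, fewer groups, each library left out, and mitochondrial genes left out, the last chosen after seeing the data.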

Additional observations from a re-analysis of the deposited data

Results flagged for a closer look

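Of 28 groups of values (7 genes in 4 groups), 3 held a library far from the others of its group, where chance flags about 1 in 20. Neat1 in WT30 replicate 7 was 1015.94 CPM, above the other 6 libraries. Meg3 in WT5 replicate 18 was 18.6 CPM, above the other 4. Sfpq in KO5 replicate 24 was 86.8 CPM, below the other 6.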

How the results depend on the processing

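The number of genes called between KO30 and WT30 was 14, and was 48 with DESeq2, 34 with library size alone (all higher), 9 with every gene of at least 1 count, and 7 to 93 with one library left out. Calls in cold stayed between 9013 and 11855 in WT and between 9332 and 13091 in KO over all alternatives. Neat1, Malat1, Kcnq1ot1 and Pspc1 in WT cold passed under all 19 alternatives, and Neat1, Kcnq1ot1 and Meg3 in KO cold under all 21. Malat1 in KO cold, at 0.00, was -0.33 with library size alone, -0.011 with every gene of at least 1 count, -0.0623 with at least 10 counts in every library, -0.0013 without mitochondrial genes, -0.0408 with only the 2 groups compared, and -0.044 to 0.0433 with one library left out. Meg3 in WT cold was -0.0479 with library size alone and -0.0423 to 0.1165 with one library left out, the lowest without WT5 replicate 18. With library size alone Nono was -0.15 in KO cold, -0.0338 in WT cold and 0.11 at 30 °C. The causes were not tested. No paired analysis was possible because the groups share no replicate numbers. Forms of Neat1 cannot be separated in counts per gene.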
